A study of Mus musculus with 29 samples.

Results

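The vasopressin gene (Avp) and the oxytocin gene (Oxt) were followed by their gene symbols in the count table of every library from mouse hypothalamus, 2 genes of 24499 symbols counted. RNA had been sequenced as read pairs from C57BL/6 wild-type mice, all labelled male, with no transgene or treatment named. The mice lived alone in their cages with food and water freely available on a day split evenly between light and dark, and the hypothalamus was dissected at around zeitgeber time 6, in the middle of the light phase. The ages were postnatal day 5 (P5) with 3 libraries, 3 weeks with 3, 4 weeks with 4, 5 weeks with 4, and 2, 6, 12, 18 and 24 months with 3 libraries each as deposited. Libraries were read as separate mice from their titles, and nothing in the labels says more, so the p-values rest on the spread between libraries, which may be technical.

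Avp and Oxt encode prohormones made of a short peptide hormone and its carrier protein, a neurophysin, to which the Avp product adds copeptin. Both are made in bulk by the magnocellular neurons of the paraventricular and supraoptic nuclei, which send them down axons to the posterior pituitary for release into the blood. Vasopressin holds back water in the kidney, and oxytocin drives milk ejection and contraction of the uterus. Smaller neurons of the paraventricular nucleus also make these peptides, and the suprachiasmatic nucleus, the circadian clock of the brain, makes vasopressin, so a value from whole hypothalamus adds up these sources.

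The 2 genes lie side by side on chromosome 2, and their transcripts share a stretch of identical bases. In the GRCm38 build with GENCODE release M21, Oxt (ENSMUSG00000027301.7) spans 130576173 to 130577054 on the plus strand and Avp (ENSMUSG00000037727.6) spans 130580620 to 130582554 on the minus strand. They are transcribed toward each other with 3565 bases between their ends, and each has 3 exons. The Avp transcript has 577 bases, of which 504 are coding, and the Oxt transcript has 537 bases, of which 375 are coding. Between the 2 transcripts, 2 identical runs of at least 20 bases were found, both coding in both genes. The longest run has 127 bases, which is 22.01% of the Avp transcript and 23.6% of the Oxt transcript. It crosses the junction of exon 1 and exon 2 and falls in the neurophysin part of the prohormones. It is shown because a read inside it matches both genes, with the 125 bases of exon 2 in capitals and the 2 bases of exon 1 in lower case.
Avp and Oxt, 127 bases: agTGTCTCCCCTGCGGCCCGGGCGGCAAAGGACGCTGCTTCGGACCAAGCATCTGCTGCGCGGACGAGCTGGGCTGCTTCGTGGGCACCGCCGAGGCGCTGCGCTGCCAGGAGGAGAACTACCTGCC
Avp and Oxt, 23 bases: ggccagaagccctgcgggagcgg
In Avp the exon 2 part of the longer run lies at 130581133 to 130581257, and in Oxt at 130576591 to 130576715. The shorter run lies in exon 2 of both genes, at 130581094 to 130581116 in Avp and at 130576732 to 130576754 in Oxt. Read length and the handling of reads that match 2 places are not given here by any source, so the split of such reads between Avp and Oxt is uncertain.

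The promoters of the 2 genes held different short motifs. The 250 bases before each RefSeq start (GRCm38.p6) are given on the strand of the gene, with matches to 2 of the motifs searched in capitals. The E-box CACGTG, which clock proteins bind, and the nuclear receptor half-site AGGTCA were searched on both strands. So were the core TGACG of the cAMP response element and the TATA box TATAAA.
Avp, chr2:130582589-130582838, minus strand: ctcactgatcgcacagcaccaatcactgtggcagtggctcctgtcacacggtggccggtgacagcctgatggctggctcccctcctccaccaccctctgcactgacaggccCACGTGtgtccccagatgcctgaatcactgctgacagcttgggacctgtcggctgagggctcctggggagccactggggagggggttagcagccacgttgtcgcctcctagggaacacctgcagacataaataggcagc
Oxt, chr2:130575919-130576168, plus strand: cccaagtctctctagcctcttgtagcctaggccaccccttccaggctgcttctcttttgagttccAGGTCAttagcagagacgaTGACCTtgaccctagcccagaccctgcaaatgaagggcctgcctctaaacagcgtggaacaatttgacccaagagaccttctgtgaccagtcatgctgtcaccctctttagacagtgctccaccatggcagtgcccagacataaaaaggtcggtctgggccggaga
The Avp promoter had 1 E-box, 139 to 134 bases before the start, and a GC content of 62.4%. The Oxt promoter had 2 nuclear receptor half-sites and a GC content of 54%. These half-sites lay at 185 to 180 bases before the start on the gene's strand and at 166 to 161 bases on the other strand. Neither promoter held TGACG or TATAAA in this window. Of 32851 promoters of the same length, 6.02% held CACGTG, 14% held AGGTCA, 17.8% held TGACG and 12.4% held TATAAA. A match is a description of the letters and no measurement of binding.

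Some libraries stood apart before any comparison was made. The third 24-month library held 2377580 gene counts in 1385 genes, whose 1341 mapped members all lay on chromosomes 1 and 10. It was left out, so that 28 libraries with 24661631 to 39783779 gene counts were used and the 24-month age rests on 2. At P5, Xist, the RNA that silences an X chromosome, stood at 746 and 791 CPM (counts scaled to the library size) in replicates 1 and 2, and Ddx3y, a gene of the Y chromosome, had 0 counts there. P5 replicate 3 held Xist at 0.22 CPM and Ddx3y at 55.1 CPM, and all later libraries held Xist at 1.19 CPM or less, so 2 of the 3 P5 libraries go against the label of male mice. The titles of most samples hold the letters th, tha or thal. Markers of hypothalamic nuclei outside the magnocellular system (12 genes, among them Pomc, Agrp and Hcrt) summed to 113 to 441 CPM, and 9 thalamic markers summed to 311 to 948 CPM. At 2 months the first list summed to 113 to 162 CPM, against 283 to 403 CPM at 5 weeks and 136 to 228 CPM at P5. A list of 12 markers of cortex and striatum summed to 117 to 618 CPM.

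The mean levels of Avp and Oxt were low at P5, higher from 3 to 5 weeks, lowest at 2 months and higher again from 6 months on. Not all of these steps could be told apart from P5. Avp at 6 months (edgeR, adjusted p = 0.151) and Oxt at 2 months (0.356) were not called against it. Avp was at 101 ± 25.7 CPM (SD, n = 3) at P5, 284 ± 113 (n = 3) at 3 weeks, 309 ± 80.5 (n = 4) at 4 weeks and 299 ± 73.3 (n = 4) at 5 weeks. It stood at 28.2 ± 25.1 CPM (n = 3) at 2 months and 189 ± 66.1 (n = 3) at 6 months. The means were 585 ± 400 CPM (n = 3) at 12 months, 470 ± 225 (n = 3) at 18 months and 510 ± 266 (n = 2) at 24 months. The means of Oxt followed a similar course at a lower level. They were 15.9 ± 2.29 CPM at P5, 140 ± 48.4 at 3 weeks, 151 ± 53.9 at 4 weeks and 162 ± 50.3 at 5 weeks. Oxt was at 11.1 ± 9.91 CPM at 2 months, 95.2 ± 32.4 at 6 months, 217 ± 58.2 at 12 months, 169 ± 52.8 at 18 months and 174 ± 22.7 at 24 months. An F-test over the 9 ages (edgeR quasi-likelihood, Benjamini-Hochberg adjusted over 16916 genes) gave F = 9.24 and adjusted p = 7.10e-05 for Avp and F = 15.97 and adjusted p = 1.49e-06 for Oxt. Over the same test 76.8% of all genes were called, at an adjusted p below 0.05. Without the 2-month age the test gave F = 4.22 and adjusted p = 0.00829 for Avp and F = 9.11 and adjusted p = 0.000112 for Oxt, where 73.9% of all genes were called.

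**Figure D1:**
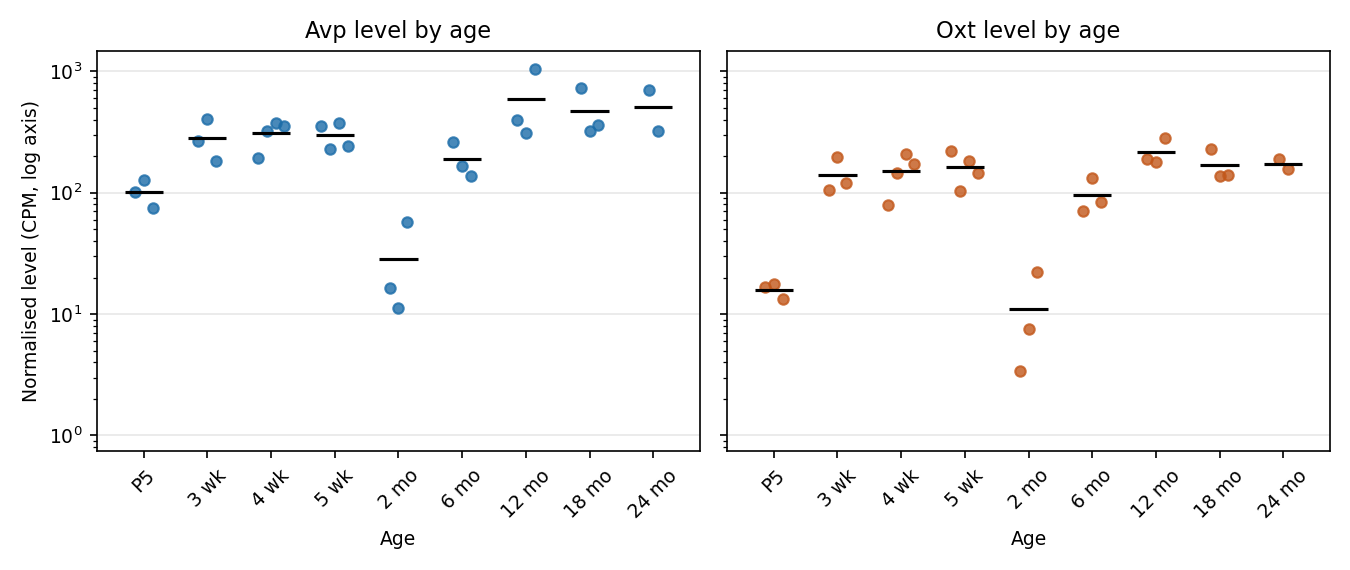
Level of Avp (left) and Oxt (right) in CPM on a log axis against age, with 1 point per library and a bar at the arithmetic mean of each age (2 to 4 libraries). All 3 of the 2-month libraries lie below every other library for Avp, and for Oxt 1 of them, at 22.3 CPM, lies above the 3 P5 libraries.

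Per length of transcript, Avp was among the most abundant RNAs of this tissue. Its mean level in CPM per kilobase of exon was 175 at P5, 518 at 5 weeks, 48.8 at 2 months, 327 at 6 months and 1014.5 at 12 months. Among 23688 genes with a length, Avp ranked between 104 and 242 at P5, 14 and 74 from 3 to 5 weeks, 378 and 2628 at 2 months, 34 and 99 at 6 months, and 2 and 19 from 12 to 24 months. Oxt had a mean of 29.5 CPM per kilobase at P5, 302 at 5 weeks, 20.6 at 2 months, 177 at 6 months and 403 at 12 months. It ranked between 1484 and 2043 at P5, 46 and 246 from 3 to 5 weeks, 1139 and 6596 at 2 months, 94 and 280 at 6 months, and 24 and 89 from 12 to 24 months. The lowest count of either gene was 94, for Oxt in 2-month replicate 11, so that no value rested on a handful of reads.

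Both genes rose from P5 to 3 weeks, and Oxt rose more. The P5 libraries held Avp at 101, 126 and 74.7 CPM, and the 3-week libraries held it at 264, 405 and 183 CPM. Oxt was at 16.7, 17.6 and 13.3 CPM at P5 and at 105, 195 and 120 CPM at 3 weeks. Every 3-week library was above every P5 library for both genes, as in 33.4% of all tested genes. Avp was 2.82-fold higher at 3 weeks, a log2 fold change of 1.49 ± 0.54 (SE, edgeR, adjusted p = 0.0220). Oxt was 8.83-fold higher, a log2 fold change of 3.14 ± 0.49 (edgeR, adjusted p = 1.14e-05). The comparison called 59.0% of all genes, so a call alone sets neither gene apart from the rest of the tissue. The Avp call was lost in edgeR without P5 replicate 1 (adjusted p = 0.0546), without P5 replicate 3 (0.0810), without 3-week replicate 2 (0.103) and with P5 replicate 3, the library without Xist RNA, as the sole P5 library (log2 fold change 1.92, adjusted p = 0.0855). With that library alone Oxt gave 3.39 (edgeR, adjusted p = 0.00268).

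From 3 to 5 weeks neither gene moved beyond the spread between libraries. At 4 weeks Avp was at 193, 319, 372 and 352 CPM and Oxt at 79.3, 145, 206 and 173 CPM. The 5-week libraries held Avp at 351, 230, 372 and 241 CPM and Oxt at 220, 102, 182 and 145 CPM. The ranges of the 3 ages overlapped for both genes. Between 3 and 4 weeks the log2 difference was 0.12 ± 0.49 for Avp (edgeR, adjusted p = 0.959, 95% interval -0.85 to 1.09) and 0.11 ± 0.41 for Oxt (0.955, -0.70 to 0.92), where 0.502% of all genes were called. Between 4 and 5 weeks it was -0.05 ± 0.46 for Avp (0.986, -0.94 to 0.85) and 0.11 ± 0.38 for Oxt (0.965, -0.64 to 0.85), where 0.0236% were called. The small RNA Rn7s2 split the libraries of these ages into 2 sets. It ran from 1.44 to 2.11 CPM in all of 3 weeks with 4-week replicates 1 and 2, and from 21.7 to 29.6 CPM in 4-week replicates 3 and 4 with all of 5 weeks. With a term for these sets the 4-week to 3-week difference was -0.14 for Avp and -0.31 for Oxt, and the part of the sets in these values was not tested further.

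At 2 months Avp and Oxt were at their lowest means of the series. The 3 libraries held Avp at 16.5, 11.1 and 56.9 CPM and Oxt at 3.41, 7.54 and 22.3 CPM. All 3 lay below all 4 of the 5-week libraries for both genes, as in 13.5% of tested genes, and replicate 13 was the highest of the 3 for both. Avp was 10.7-fold lower than at 5 weeks, a log2 fold change of -3.42 ± 0.57 (edgeR, adjusted p = 0.000583). Oxt was 14.8-fold lower, at -3.89 ± 0.50 (edgeR, adjusted p = 6.59e-05). This comparison called 16.6% of all genes. Cortical markers differed between these libraries too, with Neurod2 at 24.2, 23.9 and 4.52 CPM and Slc17a7 at 330, 345 and 134 CPM in replicates 11, 12 and 13. The libraries lowest in Avp and Oxt at their ages, 4-week replicate 1 and 5-week replicate 2, held Neurod2 at 27.1 and 33.6 CPM, against 1.67 to 4.03 CPM in the other 6 of these ages. At 2 months the list of cortex and striatum summed to 231 to 537 CPM (median 532), against 230 to 491 CPM (median 236) at 5 weeks. Of its 12 members 1 was called, as lower. The part of these markers in the Avp and Oxt levels was not tested. In bulk tissue, fewer cells of a type and less RNA per cell cannot be told apart.

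Both genes rose again from 2 to 6 months. The 6-month libraries held Avp at 263, 166 and 137 CPM and Oxt at 70.1, 132 and 83.7 CPM, all above the 2-month libraries, as in 10.7% of tested genes. Avp was 6.74-fold higher at 6 months, a log2 fold change of 2.75 ± 0.57 (edgeR, adjusted p = 0.0140). Oxt was 8.68-fold higher, at 3.12 ± 0.50 (edgeR, adjusted p = 0.00372), and 3.59% of all genes were called. The Avp call was lost in edgeR without 2-month replicate 11 (adjusted p = 0.0926), 6-month replicate 32 (0.0578) or 6-month replicate 33 (0.0525). With only these 2 ages in the fit no gene was called, with adjusted p = 0.240 for Avp and 0.215 for Oxt. Across the 2-month age, from 5 weeks to 6 months, the log2 difference was -0.66 ± 0.50 for Avp (edgeR, adjusted p = 0.409, 95% interval -1.64 to 0.32) and -0.77 ± 0.42 for Oxt (0.238, -1.59 to 0.05), where 13% of all genes were called.

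From 6 months on the levels were higher in every older library, with no call after adjustment. The 12-month libraries held Avp at 399, 313 and 1044.3 CPM and Oxt at 189, 178 and 284 CPM, all above the 6-month libraries, as in 6.89% of tested genes. Avp was at 728, 321 and 361 CPM at 18 months and at 698 and 322 CPM at 24 months. Oxt was at 230, 138 and 140 CPM at 18 months and at 190 and 158 CPM at 24 months. All 8 libraries of 12, 18 and 24 months lay above all 3 of 6 months for both genes, which held for 1.74% of tested genes. Markers of other regions also varied between these libraries. The list of cortex and striatum summed to 250 to 506 CPM at 6 months. At 12, 18 and 24 months it ran from 197 to 249, 185 to 304 and 194 to 216 CPM. A list of 12 midbrain and hindbrain markers summed to 58.3 to 212 CPM at 6 months. At the later ages it ran from 53.7 to 262, 62.4 to 92.2 and 50.5 to 63.3 CPM. The part of these markers in the Avp and Oxt levels was not tested. From 6 to 12 months the log2 fold change was 1.63 ± 0.54 for Avp (edgeR, unadjusted p = 0.0066, adjusted p = 0.381) and 1.19 ± 0.45 for Oxt (unadjusted p = 0.0147, adjusted p = 0.423). In this comparison edgeR called 0% of all genes, 1548 had an unadjusted p below 0.05, and DESeq2 called 26, neither Avp nor Oxt among them. One library carried part of the Avp value, which was 0.92 without 12-month replicate 28, the library at 1044.3 CPM.

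Between 12, 18 and 24 months the 2 genes showed no difference beyond their spread. From 12 to 18 months the log2 difference was -0.32 ± 0.53 for Avp (95% interval -1.35 to 0.72) and -0.36 ± 0.44 for Oxt (-1.22 to 0.50), and edgeR called 0% of genes, with 410 at an unadjusted p below 0.05 and 1 by DESeq2. From 18 to 24 months it was 0.12 ± 0.59 for Avp (-1.03 to 1.27) and 0.04 ± 0.49 for Oxt (-0.92 to 0.998), with 0% of genes called by edgeR, 522 at an unadjusted p below 0.05 and 0 by DESeq2. From 6 to 24 months it was 1.43 ± 0.58 for Avp (edgeR, 95% interval 0.29 to 2.57, unadjusted p = 0.0226, adjusted p = 0.416) and 0.87 ± 0.49 for Oxt (-0.08 to 1.82, adjusted p = 0.620), where 0.106% of genes were called. The slope over the 11 libraries of 6 to 24 months was 0.066 ± 0.041 log2 units per month for Avp (edgeR, adjusted p = 0.697) and 0.038 ± 0.026 for Oxt (0.739). No gene of 16553 was called for this slope by edgeR, 1552 had an unadjusted p below 0.05, and DESeq2 called 123.

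The order of the ages by mean level was nearly the same for both genes, and few neighbours in it could be told apart. For Avp the order from the lowest was 2 months, P5, 6 months, 3 weeks, 5 weeks, 4 weeks, 18 months, 24 months and 12 months. In that order 2 months and P5 differed (edgeR, log2 -1.85 ± 0.56, adjusted p = 0.00673), and the other 7 steps had adjusted p-values from 0.151 to 1. For Oxt the order was 2 months, P5, 6 months, 3 weeks, 4 weeks, 5 weeks, 18 months, 24 months and 12 months. There P5 and 6 months differed (edgeR, log2 2.58 ± 0.48, adjusted p = 8.66e-05), and the other 7 steps had adjusted p-values from 0.356 to 1. Of the 36 pairs of ages, edgeR called 14 for each gene and DESeq2 also 14. For Avp 8 of the called pairs held the 2-month age and 6 more held P5, and for Oxt these were 7 and 7. Among the 21 pairs of the other 7 ages neither gene was called. As a background, the share of all genes called against P5 was 59.0% at 3 weeks, 62.7% at 4 weeks, 61.8% at 5 weeks, 63.0% at 2 months, 60.5% at 6 months, 61.6% at 12 months, 62.0% at 18 months and 57.0% at 24 months. Against 2 months it was 26.9% at 3 weeks, 14.3% at 4 weeks, 16.6% at 5 weeks, 3.59% at 6 months, 15.8% at 12 months, 18.7% at 18 months and 11.4% at 24 months. Between 3 weeks and later ages other than 2 months it was 0.502% at 4 weeks, 2.15% at 5 weeks, 28.1% at 6 months, 32.9% at 12 months, 35.4% at 18 months and 21.9% at 24 months. Between 4 weeks and later ages it was 0.0236% at 5 weeks, 21% at 6 months, 27.3% at 12 months, 30.5% at 18 months and 13.1% at 24 months. From 5 weeks it was 13% to 6 months, 19.9% to 12 months, 22.9% to 18 months and 9.81% to 24 months. From 6 months it was 0.0177% to 18 months and 0.106% to 24 months, and from 12 to 24 months it was 0.00591%. The pairs share libraries, so they are no separate support for one another.

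The 2 genes differed in where P5 stood against later ages. Avp at 6 months was 0.91 ± 0.53 above P5 on the log2 scale (edgeR, adjusted p = 0.151), and Oxt was 2.58 ± 0.48 above it. At 12 months the values against P5 were 2.54 ± 0.56 for Avp (edgeR, adjusted p = 0.000507) and 3.77 ± 0.50 for Oxt (1.25e-06), and at 24 months 2.34 ± 0.59 (0.00193) and 3.45 ± 0.52 (7.56e-06). At 2 months Oxt stood at -0.53 ± 0.49 against P5 (edgeR, adjusted p = 0.356) and Avp at -1.85 ± 0.56.

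The share of Oxt in the summed counts of both genes was lowest at P5, and this difference was tested on the ratio itself. The P5 libraries had Oxt shares of 14.1, 12.3 and 15.1%, with exact 95% binomial intervals from 11.4 to 16.4% that cover counting error only. At 3 weeks the shares were 28.5, 32.5 and 39.6%. They ran from 29.2 to 35.7% at 4 weeks and from 30.7 to 38.5% at 5 weeks. The 25 later libraries started at 17.2%, so every P5 library lay below every later one. In the log2 ratio of Oxt to Avp sequencing depth cancels, and gene length, a fixed factor, cancels only in differences between ages. The log2 ratio was -2.65 ± 0.18 (SD, n = 3) at P5 and -0.997 ± 0.364 (n = 3) at 3 weeks. As a ratio of Avp to Oxt counts this was 6.26 at P5 and 1.996 at 3 weeks. P5 differed from the 25 later libraries by -1.49 in the mean log2 ratio (exact permutation test, two-sided, p = 0.000305, the smallest that the 3276 splits allow, adjusted p = 0.00122 over 4 tests of the ratio). P5 replicates 1 and 2, which held Xist RNA, had shares of 14.1 and 12.3%. The share was 15.1% in replicate 3, which held little of it. The part of sex in the P5 share was not tested.

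After P5 the ratio showed no such step. At 2 months the Oxt shares were 17.2% (95% interval 14.1 to 20.6%), 40.4% (36.6 to 44.4%) and 28.1% (26.2 to 30.1%), nearly the whole range of the later libraries. The mean log2 ratio at 2 months was -1.40 ± 0.86 (SD, n = 3), a difference of -0.27 from the other 22 libraries after P5 (exact permutation test, two-sided, p = 0.375, adjusted p = 0.458). This value rested on single libraries, at 0.17 without 2-month replicate 11 (exact p = 0.616) and at -0.69 without replicate 12 (exact p = 0.0471). The 6-month shares were 21.04, 44.3 and 38.0%, and the highest of these was the highest of all libraries. From 12 months on the shares were 32.1, 36.2 and 21.4% at 12 months, 24.0, 30.0 and 27.9% at 18 months, and 21.4 and 32.9% at 24 months. Over the 11 libraries of 6 to 24 months the log2 ratio had a Pearson r of -0.35 with age (permutation test, p = 0.292) and a Spearman rho of -0.25 (p = 0.458), both 0.458 after adjustment. Without the 2 libraries farthest in age r was -0.35.

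**Figure D2:**
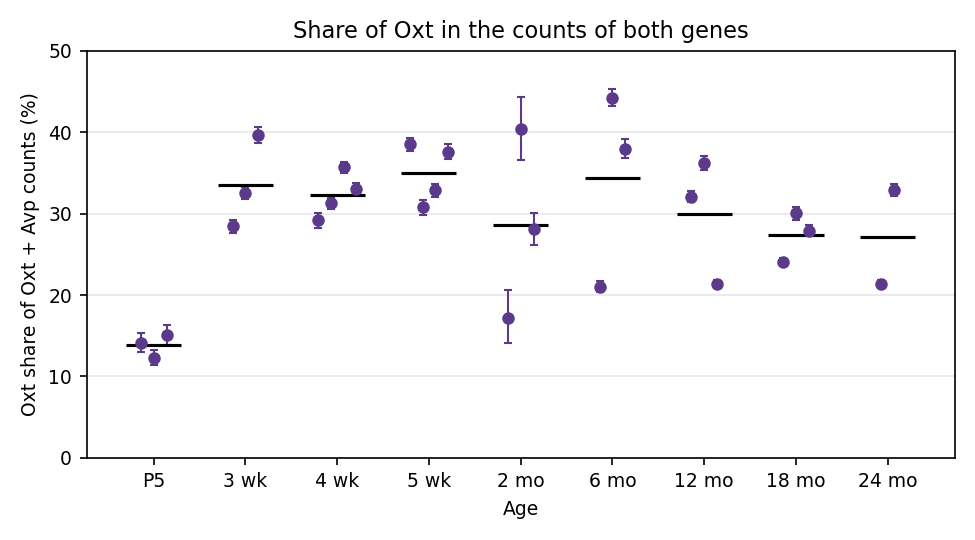
Share of Oxt in the summed Oxt and Avp counts (%) against age, with 1 point per library, its exact 95% binomial interval as a vertical line and a bar at the mean of each age. The 3 P5 libraries sit between 12.3 and 15.1%, below all 25 later libraries, which start at 17.2%.

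Across libraries the levels of the 2 genes moved together, within ages as well as between them. The P5 and 2-month libraries stood apart from the rest, so no value over all libraries is given. Over the other 22 libraries Pearson's r of log2 CPM was 0.79 (permutation test, p = 4e-05, adjusted p = 5.33e-05 over 8 values) and Spearman's rho was 0.85 (p = 1e-05, the smallest that 100000 permutations give, adjusted p = 1.6e-05). Without the 2 libraries farthest from the median of Avp, r was 0.70. As deviations from the age means, with libraries permuted within ages, the 28 libraries gave r = 0.72 (permutation test, p = 0.00248, adjusted p = 0.00248) and rho = 0.69 (p = 0.00089, adjusted p = 0.00102), and r = 0.59 without the 2 farthest libraries. In 12-month replicate 28, the library highest in Avp, Oxt was also the highest of all libraries, and 2-month replicate 13 was the highest of its age in both. Exceptions included 6-month replicate 32, with the highest Avp and the lowest Oxt of its age. They also included 3-week replicate 1 and 2-month replicate 11, with the middle Avp and the lowest Oxt. In 2-month replicate 12 Avp was lowest and Oxt was in the middle. At 5 weeks Avp was highest in replicate 3 and Oxt in replicate 1. Both genes come from the same library and could share reads in the 127-base run, and the part of that run in the relation was not tested. The thalamic marker Tcf7l2 was lowest of its age in the library highest in Avp at P5, 3 and 4 weeks and 6, 12, 18 and 24 months. In 12-month replicate 28 it was at 67.7 CPM, against 129 and 163 CPM in replicates 26 and 27. At 5 weeks (128.5 CPM, against 127 in replicate 4) and 2 months (177, against 158 in replicate 12) it was not lowest. The part of thalamic RNA in the relation and in the spread within ages was not tested.

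**Figure D3:**
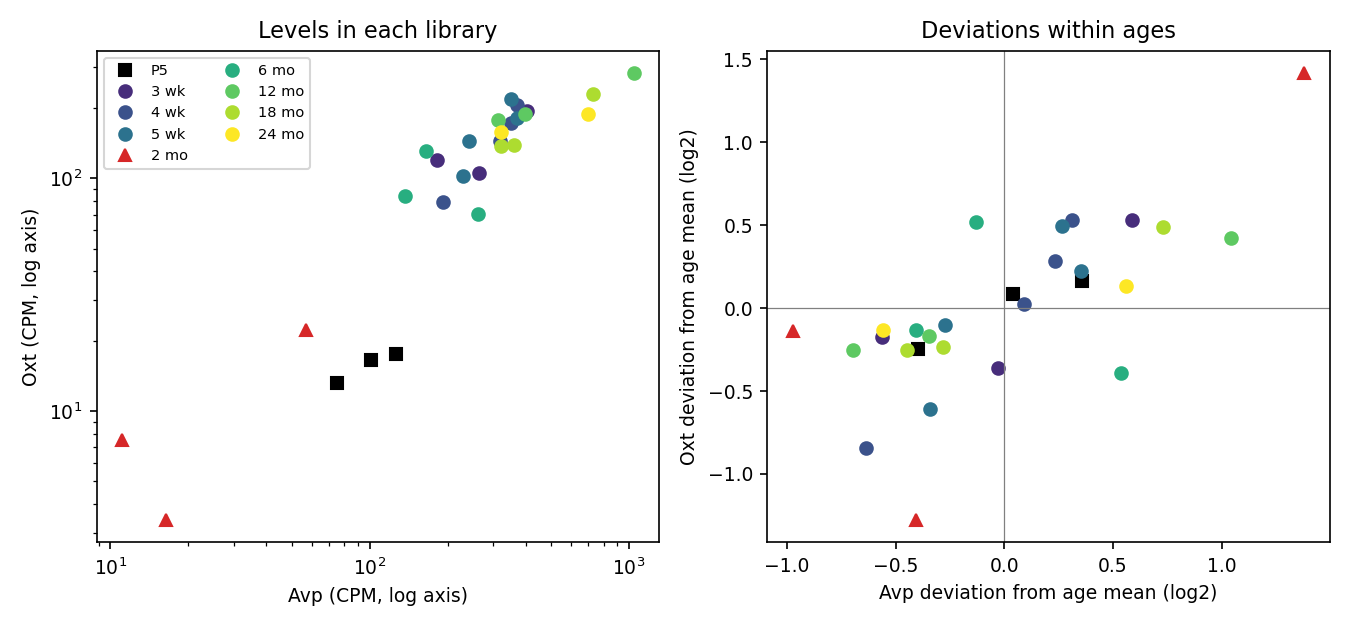
Left, Oxt against Avp in CPM (both axes log) with 1 point per library coloured by age. Right, the deviation of each library from the mean of its age in log2 CPM for Oxt against Avp, where the 28 points follow r = 0.72 and 1 of the 2-month libraries (triangles) lies highest for both genes.

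Libraries of the same age differed in these 2 genes more than in most others. The SD of log2 CPM within ages was 0.67 for Avp and 0.61 for Oxt (19 degrees of freedom), against a median of 0.142 over 14591 genes. Avp lay above 98.5% and Oxt above 98.0% of these genes. Among genes within 2-fold of its own mean level, Avp lay above 99.8% of 1250 genes and Oxt above 99.7% of 3232. The biological coefficient of variation that edgeR fitted was 0.444 for Avp and 0.393 for Oxt, against a median of 0.0971. These are descriptions of the spread with no test.

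Genes beside the pair on chromosome 2 showed no change of that size. On the Oxt side lie Ptpra, a receptor tyrosine phosphatase, 4930473A02Rik, an antisense RNA, and Mrps26, of the mitochondrial ribosome, at distances of 20048, 12423 and 7477 bases. On the Avp side lie Ubox5, a ubiquitin ligase, Fastkd5, of mitochondrial RNA processing, and Lzts3, a postsynaptic protein, at 7447, 31285 and 50284 bases. Ptpra overlaps 4930473A02Rik and Ubox5 overlaps Fastkd5, so the counts of these 4 are uncertain. From P5 to 3 weeks Lzts3 rose by 0.48 on the log2 scale (edgeR, adjusted p = 9.88e-06), and the other 5 ran from -0.56 to 0.21 and were not called. From 5 weeks to 2 months Lzts3 fell by 0.31 (edgeR, adjusted p = 0.00536), and the other 5 ran from -0.06 to 0.27 and were not called. From 2 to 6 months none of the 6 was called, with values from -0.45 to 0.26. The share of all genes called in these 3 comparisons was 59.0%, 16.6% and 3.59%.

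**Figure D4:**
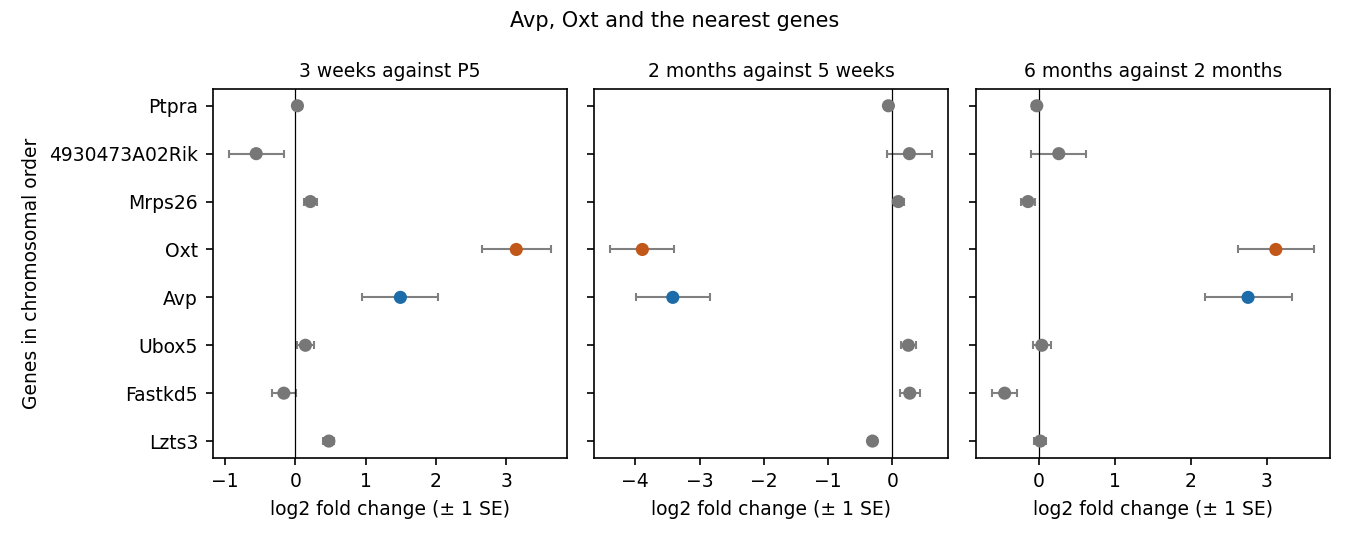
Log2 fold change with 1 SE of Avp, Oxt and the 3 nearest genes on each side, in chromosomal order, for 3 weeks against P5, 2 months against 5 weeks and 6 months against 2 months (edgeR). Avp and Oxt lie at 1.49 and 3.14, at -3.42 and -3.89, and at 2.75 and 3.12 in the 3 panels, and the 6 neighbours between -0.56 and 0.48.

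The genes whose levels ran most like those of Avp and Oxt were picked by the smaller of their 2 Pearson correlations among 14589 genes that averaged 1 CPM or more. Over the 28 libraries these were Krt90 (r = 0.87 with Avp and 0.89 with Oxt), Kcna5 (0.86 and 0.88), Stk32a (0.87 and 0.85), Gal (0.89 and 0.85), Qrfp (0.87 and 0.85) and Grb10 (0.84 and 0.91). Kcna5 encodes a potassium channel, Gal the neuropeptide galanin, Qrfp a neuropeptide of the RFamide family and Grb10 an adaptor of insulin signalling. Gal was at 21.4 ± 4.11 CPM at 5 weeks, 6.61 ± 1.17 at 2 months and 16.3 ± 3.65 at 6 months. Kcna5 was at 16.7 ± 1.78, 6.74 ± 1.16 and 13.2 ± 1.85 CPM at these ages. By deviations from the age means the 6 were Ces1d (r = 0.74 and 0.80), Cyp4f17 (0.69 and 0.76), Scn7a (0.69 and 0.69), P2rx2 (0.72 and 0.68), Asb4 (0.67 and 0.69) and Ccdc8 (0.74 and 0.66). Scn7a, which encodes a sodium channel that senses salt, was at 3.52 ± 1.29 CPM at P5 and 21.2 ± 4.99 at 12 months. Ces1d, a carboxylesterase, was at 9.22 CPM in 12-month replicate 28, the library highest in Avp and Oxt, and at 4.9 CPM or less in the others. No gene was on both lists, and the correlations describe these libraries, which the genes share. Those over the 28 libraries include P5 and 2 months, which stood apart, and no value without these ages is given.

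The 10 transcription factors of the magnocellular list did not follow 1 course. Otp and Sim1 specify these neurons in the embryo, Arnt2 is the partner of Sim1, Pou3f2 acts after them, and Creb3l1 activates Avp transcription. From P5 to 3 weeks 2 of the 10 factors were higher and 4 lower, where 59.0% of all genes were called, so the calls were near the background. The median log2 change was -0.39 against -0.01 over all tested genes. Nr2f1 (-1.004), Creb3l1 (-0.70 ± 0.18, edgeR, adjusted p = 0.00174), Arnt2 (-0.41) and Pou3f2 (-0.38) fell, and Rora (1.34) and Pou3f3 (0.80) rose, while Avp and Oxt rose. Otp stood at 0.47 ± 0.34 (adjusted p = 0.237) and Sim1 at -0.40 ± 0.23 (0.130).

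At 2 months Otp and Sim1 were low together with Avp and Oxt. Otp was at 34.9, 21.2, 39.5 and 26.7 CPM at 5 weeks and at 2.54, 4.23 and 5.49 CPM at 2 months, with no overlap. It fell by 2.90 on the log2 scale (SE 0.37, edgeR, adjusted p = 5.63e-05). Sim1 went from 7.45 ± 1.05 CPM to 3.05 ± 0.62 CPM and fell by 1.29 (SE 0.23, edgeR, adjusted p = 0.000679), and Sim2 fell by 0.92. These were the 3 called of 10 factors, all lower, where 16.6% of all genes were called, with a list median of -0.25 against 0.01 over all genes. Creb3l1 (-0.15 ± 0.18, adjusted p = 0.614), Pou3f2 (0.01 ± 0.12, 0.983) and Arnt2 (0.05 ± 0.08, 0.701) were not called. From 2 to 6 months Sim1 rose by 1.07 (edgeR, adjusted p = 0.0181) and Otp by 1.68 (0.0197). These were the 2 called of the list, where 3.59% of all genes were called. At 6 months Otp was still below its 5-week level, by a log2 difference of -1.22 ± 0.33 (edgeR, adjusted p = 0.0174), where Sim1 stood at -0.22 ± 0.22 (0.545).

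Most enzymes and granule proteins that turn the prohormones into peptides rose after P5. Pcsk1 and Pcsk2 cut prohormones, Cpe trims the cut ends, Pam amidates the peptides and granins such as Scg2 fill the granules. From P5 to 3 weeks 10 of 13 members were higher and none lower, with a median of 0.80, against 5034 higher and 4952 lower of 16916 genes and a median of -0.01. Pam rose from 105 ± 4.92 to 264 ± 26.4 CPM (log2 1.34 ± 0.10, edgeR, adjusted p = 1.36e-11), and Pcsk1 rose from 14.1 ± 0.15 to 38.3 ± 4.04 CPM (1.44 ± 0.19, adjusted p = 8.92e-07). Pcsk1n (1.41), Pcsk2 (1.04) and Cpe (0.97) rose too. From 5 weeks to 2 months 4 of 13 were lower and none higher, with a median of -0.22, against 1596 lower and 1206 higher of 16916 genes (16.6% called). They were Pcsk1n (-0.72), Pcsk1 (-0.69 ± 0.18, edgeR, adjusted p = 0.0110), Vgf (-0.60) and Scg2 (-0.51), and Pam stood at -0.22 ± 0.09 (0.0864). From 2 to 6 months Cpe alone was called, lower by -0.37 (edgeR, adjusted p = 0.0338), where 3.59% of all genes were called. Pcsk1 stood at 0.62 ± 0.19 (edgeR, adjusted p = 0.0633).

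Receptors and the machinery around them changed in both directions after P5. Avpr1a and Oxtr are the receptors for vasopressin and oxytocin in the brain, Gnaq and Gna11 encode the G proteins they act through, Lnpep cleaves both peptides and Cd38 is needed for oxytocin release. Avpr1b and Avpr2 were too low to test, with means of at most 0.05 CPM and 0.15 CPM, so 7 of 9 members were tested. From P5 to 3 weeks Cd38 rose from 2.85 ± 0.21 to 17.2 ± 1.28 CPM (log2 2.59 ± 0.18, edgeR, adjusted p = 9.25e-12) and Lnpep rose by 0.70. Oxtr fell from 18.4 ± 2.74 to 9.49 ± 0.51 CPM (-0.96 ± 0.17, edgeR, adjusted p = 2.55e-05), and Gnaq fell by 0.71. With these, 2 of the 7 were higher and 3 lower, where 59.0% of all genes were called, split evenly by direction. Avpr1a stood at -0.39 ± 0.23 (edgeR, adjusted p = 0.148). From 5 weeks to 2 months Avpr1a fell from 5.22 ± 1.04 to 2.70 ± 0.13 CPM (-0.95 ± 0.23, edgeR, adjusted p = 0.00705) and Gna11 fell by 0.26, the 2 called of 7, where 16.6% of all genes were called. Oxtr stood at -0.33 ± 0.16 (0.172) and Cd38 at 0.11 ± 0.15 (0.666). From 2 to 6 months none of the 7 was called, where 3.59% of all genes were called. Avpr1a stood at 0.73 ± 0.24 (edgeR, adjusted p = 0.0856).

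Peptides and other products that magnocellular neurons release or hold beside the 2 hormones gave a mixed picture. Pdyn encodes the precursor of dynorphin, which vasopressin neurons co-release, and Cartpt the precursor of the CART peptides. From P5 to 3 weeks 4 of 11 were higher and none lower, namely Cartpt (2.68), Calb1 (1.06), Penk (0.99) and Nos1 (0.91), and Pdyn stood at 0.17 ± 0.20 (edgeR, adjusted p = 0.466). Over all 16916 genes 5034 were higher and 4952 lower, so 4 of 11 is near the background. Penk, which the striatum also expresses, was at 159, 82.2 and 59.7 CPM at 3 weeks, and the striatal markers Ppp1r1b (226, 23.1 and 21.5 CPM) and Adora2a (44.9, 3.72 and 2.92 CPM) were highest in the same library, replicate 1. Their part in the Penk value was not tested. From 5 weeks to 2 months Pdyn went from 42.1 ± 7.38 to 17.3 ± 2.66 CPM and fell by 1.28 (SE 0.20, edgeR, adjusted p = 0.000201). Gal fell by 1.69 and Calb1 by 0.69, while Cartpt rose by 0.66, so 3 of 11 were lower and 1 higher, where 16.6% of all genes were called. From 2 to 6 months Pdyn rose by 1.32 (edgeR, adjusted p = 0.00250) and Gal by 1.31 (0.00695). No other member was called, where 3.59% of all genes were called.

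Several hormones of smaller hypothalamic neurons and markers of other nuclei were also lower at 2 months, where 16.6% of all genes were called, 1596 of 16916 as lower and 1206 as higher. Of 7 parvocellular hormones 3 were lower at 2 months than at 5 weeks and none higher, Trh (-2.10), Ghrh (-1.49) and Nts (-1.12), with a median of -1.12 over the 7. Crh, the hormone of the stress axis, stood at -0.80 ± 0.33 (edgeR, adjusted p = 0.103). Of 9 genes of the suprachiasmatic nucleus 3 were lower, Six6 (-2.61), Nms (-1.79) and Syt10 (-0.82), and Grp (0.70) was higher, while Vip stood at -0.18 ± 0.36 (adjusted p = 0.791). Of 12 markers of other hypothalamic nuclei 7 were lower and none higher, among them Fezf1 (-3.28), Nr5a1 (-2.97), Pomc (-1.62) and Pmch (-1.56), with a median of -1.19 and all 12 values below 0. Of 10 tested midbrain and hindbrain markers 3 were higher, Tfap2b (4.88), Gata3 (4.02) and Tal1 (2.40), with a median of 2.07 and all 10 values above 0. The 12 genes of that list summed to 147 to 213 CPM at 2 months, against 50.3 to 108 CPM at 5 weeks and 58.3 to 212 CPM at 6 months, and none of them was at 0 in every 2-month library. At 12 months that sum ran from 53.7 to 262 CPM. Slc6a3 of this list, not among the 3 called, was at 163, 87.3 and 117 CPM at 2 months. It was at 218 CPM in 12-month replicate 28, the library highest in Avp and Oxt, and at 40.0 and 38.1 CPM in replicates 26 and 27. The part of all these markers in the Avp and Oxt levels was not tested. From 2 to 6 months, where 3.59% of all genes were called, Trh rose by 1.34, Nts by 1.13 and Six6 by 2.29. Grp of the suprachiasmatic list fell by 1.08, and of the 12 markers of other nuclei Fezf1 alone was called, higher by 2.48. The midbrain and hindbrain marker Tfap2b fell by 2.80.

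**Figure D5:**
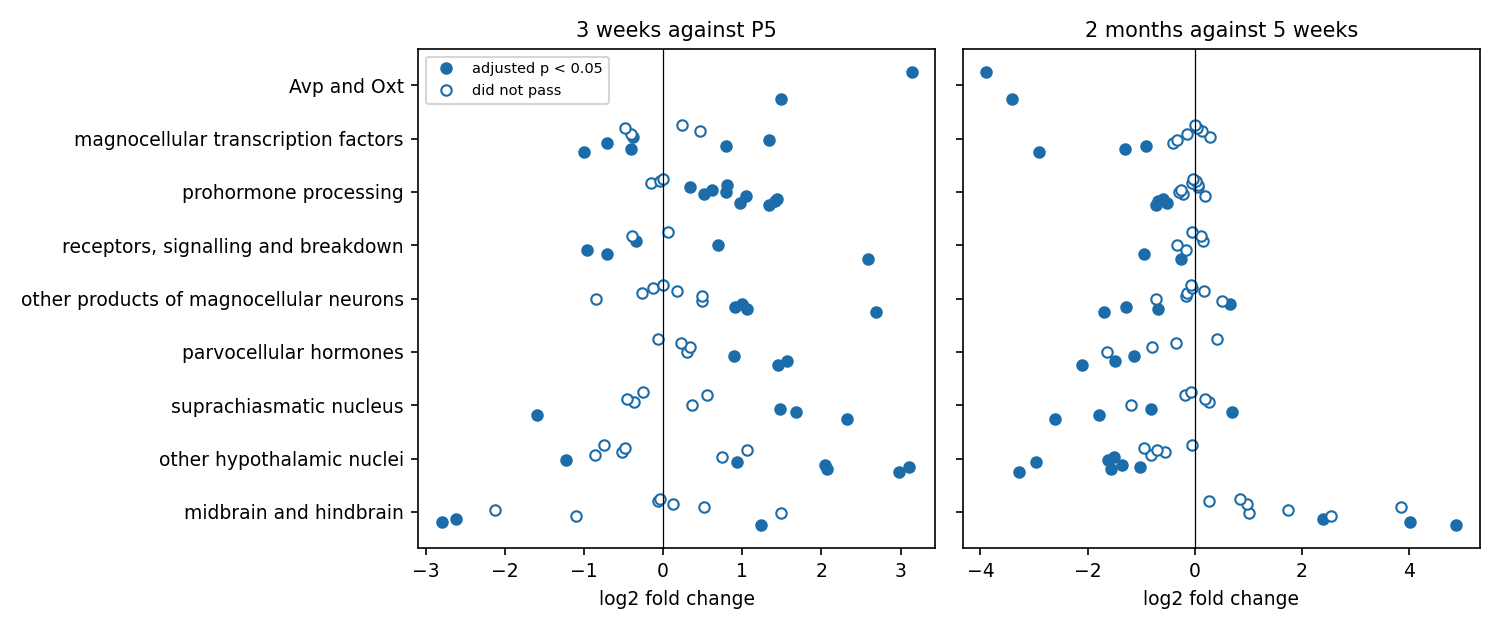
Log2 fold change (edgeR) of Avp, Oxt and the members of 8 gene lists for 3 weeks against P5 (left) and 2 months against 5 weeks (right), with filled points for an adjusted p below 0.05 and open points for genes that did not pass. On the right Avp and Oxt lie at -3.42 and -3.89, and the 10 tested midbrain and hindbrain markers all lie above 0.

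Some members of the same lists were higher at 3 weeks than at P5, where 59.0% of all genes were called and 5034 of 16916 were higher. From P5 to 3 weeks 3 of 7 parvocellular hormones were higher and none lower, Th (1.57), Trh (1.45) and Crh (0.90 ± 0.34, edgeR, adjusted p = 0.0257). In the suprachiasmatic list 3 of 9 were higher, Rgs16 (2.33), Syt10 (1.68) and Vip (1.47 ± 0.40, adjusted p = 0.00296), and Lhx1 (-1.60) was lower. Of the 12 markers of other nuclei 5 were higher, Hcrt (3.11), Tac2 (2.98), Pmch (2.07) and Pomc (2.05) among them, and Kiss1 (-1.23) was lower, with a median of 0.84. Kiss1 was at 1.64 and 1.27 CPM in P5 replicates 1 and 2, the libraries with Xist RNA, and at 0.31 CPM in P5 replicate 3, within the 3-week range of 0.27 to 0.65 CPM. Among markers of glia, Mbp rose by 5.90 and Aldh1l1 fell by 0.65. Between 6 and 12 months no member of any of the 13 lists was called by edgeR. The 6 choroid plexus markers summed to 47.7 to 4853 CPM among the 12-month libraries. Their most abundant gene, Ttr, was at 10.9, 1553 and 4547 CPM there, highest in replicate 28, the library highest in Avp and Oxt. At 18 months it was at 3036 CPM in replicate 14, where Avp was at 728 CPM, and at 930 and 870 CPM in replicates 15 and 16, where Avp was at 321 and 361 CPM. At 24 months Ttr was at 42.8 CPM in replicate 2, where Avp was at 698 CPM, and at 25.7 CPM in replicate 4, where it was at 322 CPM. The part of choroid plexus RNA in the values of these ages was not tested.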

How the data were processed

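Per the labels' protocols, hypothalamus was kept in RNAlater and sequenced as paired-end RNA libraries. Per the submitters' processing notes, the authors used HISAT2 2.1.0, HTSeq 0.9.1 and the mouse build mm10 (GRCm38). The deposited values are raw counts per gene symbol, 1 file per library. Annotation, strand setting and read length are not given in the sources used, so overlapping and antisense genes are uncertain. The 5 HTSeq summary lines, 26.1 to 32.5% of each total, were removed.

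Of 29 libraries 28 were used; the partial 24-month one (fewer than 5000 genes counted) was left out. CPM used TMM-scaled library sizes, and log2 CPM a prior count of 1. After filterByExpr by age, 16916 genes were fitted with edgeR 4.0.16 (robust quasi-likelihood, R 4.3.3) with 1 mean per age, two-sided, Benjamini-Hochberg adjusted within each comparison, and called below 0.05. Log2 fold changes carry 1 SE after ±, other values 1 SD between libraries. Ratios and correlations used permutation tests (SciPy 1.17.1). Scripts were tested on simulated data. Positions are from GENCODE M21 (23688 symbols matched), promoters of both genes from RefSeq.

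The 2 members and the 13 gene lists were chosen with earlier results of these data known. Named from each list were up to 4 called genes of smallest p per comparison and a fixed panel (Otp, Sim1, Pou3f2, Creb3l1, Pcsk1, Pam, Avpr1a, Avpr1b, Oxtr, Cd38, Pdyn, Crh, Vip), plus the 6 genes most alike by each of 2 measures and the 3 nearest on each side. Chosen after their values were seen were Avpr2, Arnt2 at 2 months, Aldh1l1, Kiss1, Ttr, Neurod2, Slc17a7, Ppp1r1b, Adora2a, Tcf7l2, Slc6a3, the levels of Rora and the levels given for genes most alike. Some results of the list of glia and vessels are not reported here. Alternatives were DESeq2 1.42.0, no low-count filter, plain library sizes, all 29 libraries, 2 ages alone, P5 replicate 3 alone, a replicate block, a library-set term and leaving out each library.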

Additional observations from a re-analysis of the deposited data

How the results depend on the processing

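Of 640 recomputed values of Avp, Oxt, their ratio and their relation, 598 kept their direction and their side of the threshold (426 of 450 that left out 1 library and 172 of 190 others). With the partial 24-month library included the spread of all genes grew, and no member passed: 3 weeks against P5 gave 1.505 for Avp and 3.15 for Oxt, 2 months against 5 weeks -3.39 and -3.86, 6 against 2 months 2.73 and 3.09, 24 against 18 months the reversed values -0.47 and -0.55, and the F values were 1.73 and 2.57 over 9 ages and 0.76 and 1.47 over 8. With P5 replicate 3 as the sole P5 library Avp at 3 weeks gave 1.92 and lost its call. With only the 2 ages in the fit, so with fewer samples, 6 against 2 months gave 2.75 for Avp and 3.12 for Oxt with no call. The library-set term reversed 4 against 3 weeks for Avp (-0.14) and Oxt (-0.31) and 5 against 4 weeks for Oxt (-0.23).

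Leaving out 1 library gave 1.15 to 1.73 for Avp at 3 weeks against P5 and 2.37 to 3.78 at 6 against 2 months, with 3 lost calls each. It gave -0.12 to 0.47 for Avp and -0.075 to 0.42 for Oxt at 4 against 3 weeks, -0.22 to 0.058 and -0.11 to 0.29 at 5 against 4 weeks, -0.78 to 0.40 for Avp at 18 against 12 months, -0.55 to 0.58 and -0.10 to 0.33 at 24 against 18 months, and -0.69 to 0.17 for the 2-month ratio. Oxt kept its call in every such fit at 3 weeks, 2 months and 6 months. Replicate numbers did not pair the libraries (r of same-numbered deviations from -0.209 to 0.131), and the replicate block changed no call of Avp or Oxt (Avp 1.49 and Oxt 3.13 at 3 weeks, 0.17 and 0.092 at 4 against 3 weeks, -0.035 and 0.14 at 5 against 4 weeks). The replicate numbers of 2 to 24 months are not shared between these ages and could not be blocked.

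Counts of all genes called moved by over 1.5 times in some fits. At 4 against 3 weeks 85 became 229 (DESeq2), 14 (2 ages), 52 (block) and 14 (set term). At 5 against 4 weeks 4 became 47 (DESeq2), 12 (plain library sizes), 9 (set term) and 0 (block, and 2 ages). At 2 months against 5 weeks 2802 became 1534 (2 ages), and at 6 against 2 months 608 became 1283 (DESeq2) and 0 (2 ages). At 24 against 6 months 18 became 107 (DESeq2), 11 (no low-count filter) and 0 (2 ages). Leaving out 1 library gave 51 (without 6-month replicate 33), 88 (2-month replicate 11), 189 (6-month replicate 32) or 1348 (2-month replicate 13) at 6 against 2 months, 12 to 208 at 4 against 3 weeks, 2 to 8 at 5 against 4 weeks, 1778 at 2 months against 5 weeks (5-week replicate 3), 1292 to 1946 at 6 months against 5 weeks (2193 with all) and 0 to 20 at 24 against 6 months. With all 29 libraries 340 were called at 3 weeks against P5, 1 at 2 months against 5 weeks, and 484 and 485 by the F-tests. The slope over 2 to 24 months called 1236 genes, with 0.16 ± 0.05 per month for Avp (edgeR, adjusted p = 0.0677) and 0.13 ± 0.05 for Oxt (0.103). The list of midbrain and hindbrain markers had 5 members higher at 6 months than at 5 weeks, and 3 by DESeq2. Depth limits the share of Oxt most at 2 months, where 94 to 576 Oxt counts stood behind it. Replicates per age, 2 to 4, and the spread between libraries limit the rest.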
